A study of Mus musculus with 12 samples.

Results

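The genes described here are 51 targets of the transcription factor MYC that serve ribosome production and cell growth. They were chosen by name, as nucleolar, RNA polymerase I and growth genes, without polyamine and ribosomal protein genes, and their mouse symbols were matched to Entrez identifiers. All 51 were found among the 26305 identified genes of the deposited count table, and all 51 were among the 11997 genes with enough counts to be tested. RNA was sequenced from EMRK1184luc, 1 B cell lymphoma line from a female Eµ-Myc transgenic mouse that carries a lentiviral luciferase construct, so every group shares the Myc transgene and the reporter. The 4 groups of 3 libraries were cells treated with DMSO, the vehicle, for 3 days, DMSO for 6 days, 5 µM WM-1119 for 3 days and 5 µM WM-1119 for 6 days. WM-1119 inhibits the histone acetyltransferases KAT6A and KAT6B. The series asked how inhibitor and vehicle differ at each time in this line. The 3 libraries of a group are called biological replicates, but no separate culture or day is given for them, so the p-values rest on the spread among these samples alone. Because the data come from bulk RNA, fewer cells of a kind and less RNA per cell cannot be told apart, and values are relative to the other genes of a library, so a change in total RNA per cell would not be seen.

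Ribosomes are built mainly in the nucleolus. RNA polymerase I transcribes the ribosomal RNA precursor, small nucleolar ribonucleoproteins (snoRNPs) guide its chemical modification, and large sets of assembly factors cut, fold and export the subunits. MYC binds E-boxes, of which CACGTG is the classical form, near the start sites of many of these genes, and in Eµ-Myc mice a Myc transgene under the immunoglobulin heavy chain enhancer drives B-lineage lymphoma. Myc itself, whose counts here do not separate the transgene from the native gene, was lower with WM-1119 at both times. It stood at 1378, 1442 and 1525 CPM (counts per 1000000 counts of a library, scaled) in the DMSO libraries of 3 days and at 1232, 1169 and 1174 CPM under WM-1119. At 6 days the values were 1474, 1468 and 1645 CPM under DMSO and 1200, 1197 and 1254 CPM under WM-1119. The log2 fold change was -0.28 at 3 days (adjusted p = 0.000155) and -0.33 at 6 days (SE 0.049, adjusted p = 1.68e-05), and treated and control values did not overlap at either time.

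Promoter sequences were not read in choosing the genes by name. The choice as MYC targets may still favour E-boxes, which MYC binds, so their share is not independent of it. RefSeq promoter windows, 250 bases before to 50 after each start site on GRCm38.p6, were held for 44 of the 51 genes. CACGTG, which reads the same on both strands, was present in a window of 16 of these 44 (36.4%), beside 12.2% of the 9235 tested genes with a window, 8.09% of all 27025 genes with one, and 20.5% of 200 other genes of the same pathways. The ETS motif CCGGAAG was found on either strand in 31.8% of the 44, 21.5% of tested genes and 42% of the 200. GCGCATGCG, a core of NRF1 motifs, was found in 6.82%, 4.36% and 6.5%, and the palindrome TCGCGAGA in 2.27%, 2.66% and 4.5%. A match is a run of letters, and binding was not measured. The stretches below each lie before a RefSeq start site of the gene, overlap no GENCODE exon, and show how the E-box sits in 6 of these promoters, with the promoter of Ncl, which had no match in its window, for contrast. Capitals mark CACGTG, and all stretches read 5′ to 3′ in the direction of the gene.
Cdk4: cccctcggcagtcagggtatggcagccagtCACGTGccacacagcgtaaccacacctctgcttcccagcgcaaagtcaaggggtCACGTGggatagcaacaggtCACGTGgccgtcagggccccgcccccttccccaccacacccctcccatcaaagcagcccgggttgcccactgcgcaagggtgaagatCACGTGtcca
Nop2: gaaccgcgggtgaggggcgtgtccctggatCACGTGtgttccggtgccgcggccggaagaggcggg
Nme1: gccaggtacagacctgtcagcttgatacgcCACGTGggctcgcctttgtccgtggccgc
Eif5a: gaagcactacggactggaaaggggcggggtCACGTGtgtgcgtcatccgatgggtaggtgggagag
Exosc5: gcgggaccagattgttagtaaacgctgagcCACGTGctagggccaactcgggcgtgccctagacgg
Phb: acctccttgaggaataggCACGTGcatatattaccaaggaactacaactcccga
Ncl: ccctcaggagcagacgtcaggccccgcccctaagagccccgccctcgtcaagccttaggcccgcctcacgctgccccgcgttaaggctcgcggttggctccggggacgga
They lie at chr10:127063333-127063533 (plus strand) for Cdk4, chr6:125131793-125131858 (plus) for Nop2, chr11:93968026-93968084 (minus) for Nme1, chr11:69921425-69921490 (minus) for Eif5a, chr7:25659079-25659144 (plus) for Exosc5, chr11:95666707-95666760 (plus) for Phb and chr1:86359456-86359565 (minus) for Ncl. Those of Nme1 and Eif5a fall inside the gene's span, since each gene also has a start site further out. Cdk4, the kinase that partners D-type cyclins in G1, carried 4 E-boxes in its window. Of the 16 genes with CACGTG in a window, 3 were lower with WM-1119 at 3 days and 4 at 6 days. Their median log2 fold changes were -0.07 at both times. Of the 28 with none in a window, 6 and 12 were lower, with medians of -0.08 and -0.11. Over all tested genes 12.7% and 15.1% were called lower. CACGTG outside the windows was not searched for, so the 28 are not known to lack it. Npm1, Rrs1, Fbl, Tcof1, Bop1, Rrp12 and Eif4ebp1 had no window, so Npm1 and Rrs1, both lower at both times, are in neither group. These shares were not tested against each other.

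Library totals ranged from 14691369 to 41607926 counts, and at 6 days all 3 WM-1119 libraries (14691369 to 17509662) were shallower than all 3 DMSO libraries (22749501 to 41607926). The lowest count of any of the 51 genes in any library was 404, for Timm10. The 8 B cell markers summed to 2820 to 3100 CPM in every group, but single markers moved in opposite directions, with 2 up and 3 down at 3 days, then 3 up and 3 down at 6 days. Cd79b, a B cell receptor subunit, rose by 0.51 and 0.48 on the log2 scale, and Pax5, the B-lineage transcription factor, fell by 0.47 and 0.58, more than any of the 51 genes. T cell markers summed to at most 0.0464 CPM. The 8 fibroblast markers summed to 1.42 to 2.09 CPM under DMSO and 1.1 to 3.45 CPM under WM-1119 at 3 days, and to 1.18 to 11.8 CPM and 0.476 to 27.1 CPM at 6 days. In the WM-1119 groups of both times 1 of the 8 had no counts. The collagen gene Col1a1 exceeded 1 CPM in 5 libraries: replicates 1 and 2 of both 6-day groups and replicate 2 of WM-1119 at 3 days. Leading counts are therefore also given without these 5. The 5 macrophage markers summed to 0.569 to 1.3 CPM under DMSO and 3.73 to 5.35 CPM under WM-1119, nearly all of it Csf1r, while Lyz2 averaged at most 0.119 CPM and Adgre1 at most 0.0454 CPM in any group.

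WM-1119 was accompanied by small, mostly downward differences across the 51 genes. At 3 days 11 of 51 were lower (21.6%) and 0 higher by edgeR's quasi-likelihood test at an adjusted p below 0.05, beside 12.7% of all tested genes called lower and 11.8% called higher. At 6 days 18 of 51 were lower (35.3%) and 0 higher, beside 15.1% and 15.7% of all tested genes. The 11 falls at 3 days were 1.10- to 1.16-fold and the 18 at 6 days 1.09- to 1.22-fold. Median log2 fold changes were -0.07 at 3 days and -0.08 at 6 days over the 51 genes, beside 0.002 and -0.004 over all tested genes, and 40 and 43 of the 51 lay below 0. DESeq2 and limma voom called 0 of the 51 higher at either time too. At an unadjusted p below 0.05, 1 gene was higher at 3 days, Grwd1, and 0 at 6 days. Libraries of 6 days with the same replicate number deviated together, and a fit of these libraries with the replicate number as a block, added after the data were seen, called 20 of the 51 lower and 1, Utp20, higher at 6 days.

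**Figure D1:**
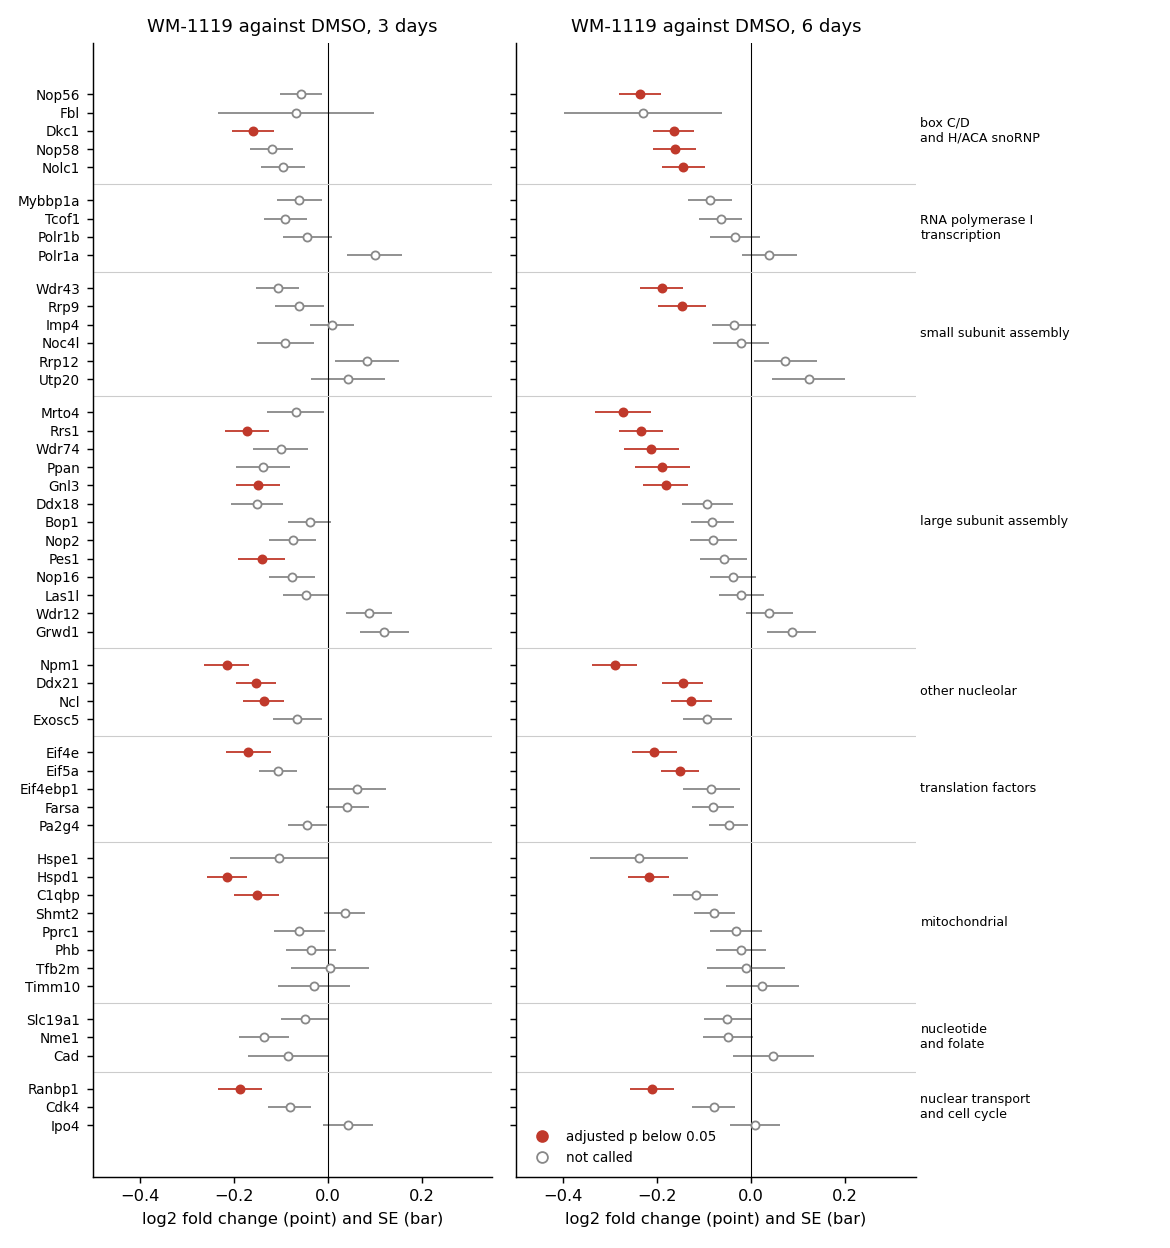
Log2 fold changes of the 51 genes, WM-1119 against DMSO, at 3 days (left) and 6 days (right), grouped by role, as points with bars of 1 SE (3 libraries a group); filled red points have an adjusted p below 0.05. All 11 red points at 3 days and all 18 at 6 days lie left of 0, between -0.29 and -0.13.

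The count at 3 days depended on single libraries. It was 4 without WM-1119 replicate 2, 5 without WM-1119 replicate 3 and 6 without DMSO replicate 3. Without the 5 libraries that exceeded 1 CPM of Col1a1 it was also 4, and the count at 6 days was 9, with only 1 library left in each 6-day group, each assumed to vary like the other groups. Of all tested genes, 1131 of 12068 were lower at 3 days without WM-1119 replicate 2 and 1173 of 12207 without WM-1119 replicate 3. Without DMSO replicate 3, 1345 of 12193 were. In these fits the share of the MYC targets called lower at 3 days was close to that of all tested genes or below it. Their medians at 3 days were -0.064, -0.088 and -0.066, beside -0.001, 0.004 and 0.003 over all tested genes. With any single library left out, Hspd1, Npm1 and Ranbp1 kept their calls at 3 days, and these and Dkc1, Eif4e, Eif5a, Gnl3, Mrto4, Nop56, Rrs1 and Wdr43 at 6 days. Without the 5 libraries the medians were -0.06 and -0.10, and the part of the fibroblast transcripts in these counts was not tested further.

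Summed over the 51 genes, every WM-1119 library lay below every DMSO library. They took 1.764% to 1.854% of the counts of a DMSO library and 1.669% to 1.746% of a WM-1119 library. Their mean level per length was 140.3 to 146.9 RPKM (CPM per kilobase of the deposited gene length) with DMSO and 127.8 to 135.7 RPKM with WM-1119. The 6 DMSO libraries and the 6 WM-1119 libraries did not overlap on either measure, and the gap was small next to the level itself. Gene by gene, the 3 treated libraries all lay below the 3 controls for 18 of the 51 at 3 days and 21 at 6 days, beside 20.4% and 19.9% of all tested genes. At 3 days 1 gene, Grwd1, had all treated libraries above the controls, and at 6 days 0 did.

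**Figure D2:**
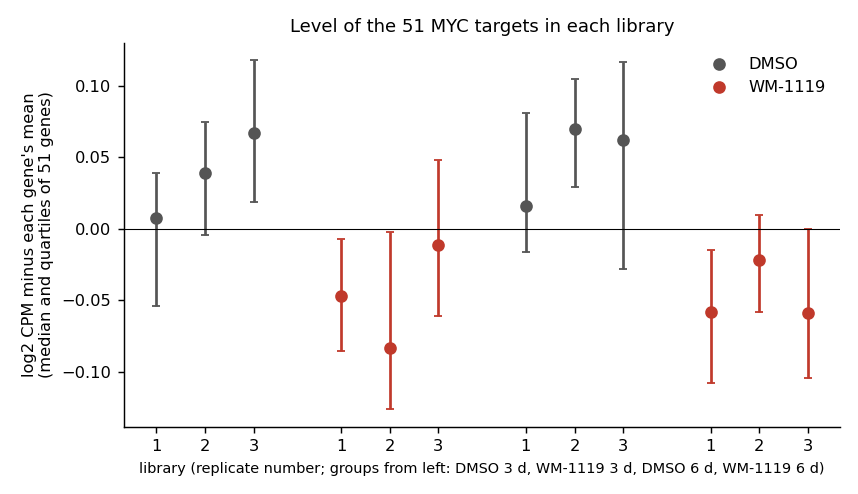
Median (point) and quartiles (bar) over the 51 genes of log2 CPM, after subtracting the mean of the gene across all 12 libraries, for each library. DMSO medians lie between 0.01 and 0.07 and WM-1119 medians between -0.08 and -0.01.

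Counts by role and list from here on stand beside 12.7% of all tested genes called lower and 11.8% called higher at 3 days. At 6 days these shares were 15.1% and 15.7%. The box C/D and H/ACA snoRNP proteins, which carry out methylation and pseudouridylation of ribosomal RNA, had 1 of 5 members lower at 3 days and 4 of 5 at 6 days. Dkc1, the pseudouridine synthase of H/ACA particles (Entrez 245474, chrX:75095854-75109776), had 330.1, 319.2 and 333.3 CPM under DMSO and 295.4, 285.5 and 298.9 CPM under WM-1119 at 3 days. At 6 days it had 323.1, 324.7 and 355.2 CPM under DMSO and 293.9, 305.7 and 294.8 CPM under WM-1119. Its log2 fold changes were -0.16 (SE 0.044, adjusted p = 0.0109) and -0.17 (SE 0.044, adjusted p = 0.00673). Every treated value of Dkc1 was below every control value of the same time.

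Nop56, a core protein of box C/D particles (Entrez 67134, chr2:130274367-130279313), did not pass the test at 3 days, with 352, 351.8 and 373.4 CPM under DMSO against 338.9, 344.3 and 352.3 CPM under WM-1119 (log2 fold change -0.06, SE 0.044, adjusted p = 0.39). At 6 days DMSO gave 358.5, 350.5 and 328 CPM and WM-1119 294.3, 301.9 and 283.5 CPM, a log2 fold change of -0.24 (SE 0.045, adjusted p = 0.000285). The groups overlapped at 3 days and were apart at 6 days. The difference between the 2 effects, -0.18 on the log2 scale (SE 0.063), had an unadjusted p of 0.00926 and an adjusted p of 0.347. Nop58, the partner of Nop56, and Nolc1, a snoRNP chaperone, also fell at 6 days, by 0.16 and 0.14 on the log2 scale (adjusted p = 0.00967 and 0.0205), and did not pass at 3 days. Fbl, the methyltransferase of the same particles, had one of the largest estimates at 6 days (-0.23) but an SE of 0.168, and ranged from 55.48 to 76.46 CPM within the DMSO libraries of 6 days. RefSeq lists 1 named pseudogene of Fbl, and how reads shared with it were counted is unknown.

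None of the 4 genes of RNA polymerase I transcription passed the test at either time. Polr1a and Polr1b encode the 2 largest subunits of the enzyme, Tcof1 encodes treacle, a nucleolar transcription cofactor, and Mybbp1a a nucleolar MYB-binding protein. Their log2 fold changes lay between -0.09 and 0.10 at 3 days and between -0.09 and 0.04 at 6 days. Polr1a had the highest log2 fold change of them at both times, and stood at 176 ± 6.16 CPM under DMSO and 189 ± 18.8 CPM under WM-1119 at 3 days (SD, n = 3, log2 fold change 0.10, adjusted p = 0.23), where WM-1119 replicate 1 (167.1 CPM) stood below the other two (198.5 and 200.6 CPM). Without that library Polr1a passed as higher at 3 days (adjusted p = 0.0123). Of 13 further genes of the polymerase and its factors 2 were lower at 3 days and 1 at 6 days, the TBP-associated factor Taf1d (-0.29, adjusted p = 0.00398), and their medians were -0.002 and 0.005.

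Of the 6 genes of small subunit assembly 0 were called at 3 days and 2 were lower at 6 days. Wdr43, a component of the small subunit processome (Entrez 72515, chr17:71616178-71659031), had 311, 298.2 and 330.5 CPM under DMSO and 303.6, 279.5 and 290.2 CPM under WM-1119 at 3 days. At 6 days it had 330.3, 319.8 and 340.8 CPM under DMSO and 290, 289.3 and 289.4 CPM under WM-1119. The log2 fold changes were -0.11 (SE 0.046, adjusted p = 0.1) and -0.19 (SE 0.046, adjusted p = 0.0029), with overlap at 3 days and none at 6 days. Rrp9, a protein of the U3 snoRNP, fell by 0.15 at 6 days (SE 0.052, adjusted p = 0.0348), and Utp20, Rrp12, Imp4 and Noc4l lay between -0.04 and 0.12 there. Utp20, a scaffold of the processome, had the highest estimate of all 51 at 6 days, 0.12 (SE 0.078, adjusted p = 0.264), and with the replicate block of the 6-day libraries it passed as higher (adjusted p = 0.0312).

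Large subunit assembly was the biggest group, with 3 of 13 genes lower at 3 days and 5 at 6 days. Rrs1, which helps to bring 5S ribosomal RNA into the subunit (Entrez 59014, chr1:9545408-9547455), had 166.3, 167.7 and 178.6 CPM under DMSO and 155.3, 143.9 and 156 CPM under WM-1119 at 3 days. At 6 days DMSO gave 171.7, 172.9 and 183.1 CPM and WM-1119 146.3, 151.4 and 150.7 CPM. Rrs1 fell by 0.17 (SE 0.047, adjusted p = 0.0093) and 0.24 (SE 0.047, adjusted p = 0.000524) on the log2 scale, without overlap at either time. Gnl3, the GTP-binding protein nucleostemin (Entrez 30877, chr14:31012433-31019131), had 299.2, 290.7 and 327.2 CPM against 282.1, 269.5 and 275.5 CPM at 3 days. At 6 days it had 306.3, 303 and 326.3 CPM against 269.1, 275.2 and 280.1 CPM. Its treated libraries were below the controls at both times, with log2 fold changes of -0.15 (SE 0.047, adjusted p = 0.0246) and -0.18 (SE 0.047, adjusted p = 0.00516). Without DMSO replicate 3 of 3 days, the highest control, Gnl3 stood at -0.10 at 3 days and did not pass (adjusted p = 0.161).

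Mrto4, a stalk-protein homologue that acts as a placeholder in the maturing large subunit (Entrez 69902, chr4:139347440-139352576), had one of the largest falls. At 3 days it had 58.41, 67.33 and 62.36 CPM under DMSO and 60.7, 58.05 and 60.84 CPM under WM-1119 (log2 fold change -0.07, SE 0.06, adjusted p = 0.453). At 6 days the values were 67.46, 72.32 and 63.89 CPM and 56.52, 57.43 and 54.56 CPM (-0.27, SE 0.06, adjusted p = 0.00135). The groups overlapped at 3 days and separated at 6 days, and the difference between the effects was -0.20 with an adjusted p of 0.483. RefSeq lists 2 named pseudogenes of Mrto4. Wdr74 (-0.21) and Ppan (-0.19) also fell at 6 days, while Pes1, of the complex of Pes1, Bop1 and Wdr12, passed only the test at 3 days (-0.14, adjusted p = 0.0448, against -0.06 and adjusted p = 0.414 at 6 days). Without the 5 libraries above 1 CPM of Col1a1, Wdr74 stood at -0.09 and Ppan at -0.03 at 6 days and neither was called (adjusted p = 0.629 and 0.887). Bop1 stood at -0.04 and -0.08 and Wdr12 at 0.09 and 0.04, so the estimates of that complex differed in sign. Grwd1, a histone-binding WD-repeat protein, had 74.42, 81.28 and 81.54 CPM under DMSO and 87.07, 86.1 and 84.6 CPM under WM-1119 at 3 days (0.12, SE 0.052, adjusted p = 0.0977). All its treated values were higher there, and at 6 days the estimate was 0.09 (adjusted p = 0.228). Nop2, Nop16, Las1l and Ddx18 ranged from -0.15 to -0.05 at 3 days and from -0.09 to -0.02 at 6 days without passing.

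The group of other nucleolar genes had 3 of 4 lower at each time. Npm1, nucleophosmin, a chaperone that organises the granular part of the nucleolus (Entrez 18148, chr11:33152498-33164142), had 1297, 1150 and 1223 CPM under DMSO and 1065, 994.7 and 1102 CPM under WM-1119 at 3 days. At 6 days it had 1307, 1330 and 1340 CPM against 1057, 1123 and 1073 CPM. Npm1 fell by 0.22 (SE 0.048, adjusted p = 0.00181) and 0.29 (SE 0.048, adjusted p = 6.11e-05) on the log2 scale, the largest fall of the 51 at each time, and its groups did not overlap.

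Ddx21, a nucleolar RNA helicase (Entrez 56200, chr10:62580247-62602298), had 615.1, 625.6 and 660.5 CPM under DMSO and 580.3, 568.3 and 562.4 CPM under WM-1119 at 3 days. At 6 days the values were 669.9, 675.4 and 721.6 CPM and 636.7, 619.6 and 611.1 CPM. The falls of 0.15 at both times (SE 0.043, adjusted p = 0.0114 and 0.0117) came without overlap. Ncl, nucleolin, had the highest counts of the 51, 3457 ± 63.4 CPM under DMSO and 3146 ± 112 CPM under WM-1119 at 3 days (SD, n = 3), and fell by 0.14 and 0.13 (adjusted p = 0.0288 and 0.0334). Without DMSO replicate 3 of 6 days, where Ncl had 3960 CPM, its log2 fold change at 6 days was -0.07 and did not pass (adjusted p = 0.195). Exosc5, a subunit of the RNA exosome, did not pass (-0.07 and -0.09), and of 11 other exosome genes 0 passed at either time.

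Among the translation genes 1 of 5 was lower at 3 days and 2 at 6 days. Eif4e, the cap-binding protein (Entrez 13684, chr3:138526191-138559696), had 161.4, 154 and 160.6 CPM under DMSO and 147.9, 138.6 and 137.1 CPM under WM-1119 at 3 days. At 6 days it had 173.8, 159.3 and 179 CPM against 148.3, 149.3 and 146.6 CPM. Its values were apart at both times, with log2 fold changes of -0.17 (SE 0.048, adjusted p = 0.0129) and -0.21 (SE 0.048, adjusted p = 0.00224). Eif4ebp1, whose product binds and inhibits Eif4e, stood at 0.06 and -0.09 and did not pass. Eif5a, the hypusine-carrying elongation factor, fell by 0.15 at 6 days (adjusted p = 0.00616) and was at -0.11 at 3 days (adjusted p = 0.061). Farsa and Pa2g4 lay between -0.08 and 0.04 at both times. Of 36 other initiation and elongation factors 0 were higher, and their medians were -0.11 and -0.10. Beside 12.7% and 15.1% of all tested genes, 12 of these factors (33.3%) were lower at 3 days and 13 (36.1%) at 6 days. Eef1g, a subunit of the elongation factor that delivers transfer RNA, was among them at -0.36 and -0.29, as was Eef2, the translocation factor, at -0.21 and -0.20.

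The 8 mitochondrial genes had 2 lower at 3 days and 1 at 6 days. Hspd1, the chaperonin HSP60 (Entrez 15510, chr1:55077833-55088243), had 716.7, 714.8 and 724.9 CPM under DMSO and 641.3, 599.2 and 618.9 CPM under WM-1119 at 3 days. At 6 days it had 789.8, 759.5 and 772.4 CPM against 669.7, 695.7 and 630.9 CPM. Hspd1 differed by -0.21 (SE 0.043, adjusted p = 0.000741) and -0.22 (SE 0.043, adjusted p = 0.000457) with no overlap, and RefSeq lists 5 named pseudogenes of it. Hspe1, its co-chaperonin and head-to-head neighbour, ranged from 84.15 to 118.1 CPM over the 6-day libraries and stood at -0.10 and -0.24 with an SE of 0.104 (adjusted p = 0.527 and 0.112). With the replicate block of the 6-day libraries Hspe1 was lower at 6 days (-0.24, adjusted p = 0.000574). RefSeq lists 7 pseudogenes named after Hspe1, the most of the 51 by this naming, and those under other names were not searched for. C1qbp, a matrix protein, passed at 3 days (-0.15, adjusted p = 0.0252) and stood at -0.12 at 6 days (adjusted p = 0.0693, or 0.0247 with the replicate block of the 6-day libraries). Phb, Pprc1, Shmt2, Tfb2m and Timm10 ranged from -0.06 to 0.04 at 3 days and from -0.08 to 0.02 at 6 days. Of 23 other genes for mitochondrial chaperones, import and genome expression 5 were lower at each time (21.7%) and 1 higher at 6 days. They included Tomm20, an import receptor, at -0.29 and -0.33.

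In the nucleotide and folate group, Cad, which starts pyrimidine synthesis, Nme1, a nucleoside diphosphate kinase, and the folate carrier Slc19a1 did not pass at either time. Nme1, which shares 12.51% of its exon bases on the same strand with Gm20390, came nearest at 3 days (-0.14, adjusted p = 0.0697). Cad varied between replicates, at 448 ± 12.6 CPM under DMSO and 423 ± 61 CPM under WM-1119 at 3 days (SD, n = 3). Among 22 other genes of these pathways 3 were lower and 3 higher at 3 days and 4 lower and 3 higher at 6 days, with Tyms, thymidylate synthase, higher at both times (0.22 and 0.35).

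Ranbp1, which assists the GTPase Ran in nuclear transport (Entrez 19385, chr16:18239979-18248694), was the 1 gene of 3 that fell in the transport and cell cycle group. Its values were 361.9, 386.5 and 366.9 CPM under DMSO and 320.8, 317.2 and 342.3 CPM under WM-1119 at 3 days. The values of 6 days were 371.9, 385 and 378 CPM and 320, 347.2 and 313 CPM. The log2 fold changes were -0.19 (SE 0.047, adjusted p = 0.00504) and -0.21 (SE 0.047, adjusted p = 0.00136), without overlap. Of the exon bases of Ranbp1, 16.87% are shared on the same strand with the gene model Gm49776. Ipo4, an importin, stood at 0.04 and 0.01, and 55.32% of its exon bases are shared on the same strand with Gm49378. How reads in such overlaps were counted is unknown. Cdk4, whose promoter carries 4 E-boxes, stood at -0.08 at both times (SE 0.045, adjusted p = 0.212 and 0.197). It shares 19.73% of its exon bases with Tspan31 on the opposite strand, and the strand setting of the counts is not given.

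**Figure D3:**
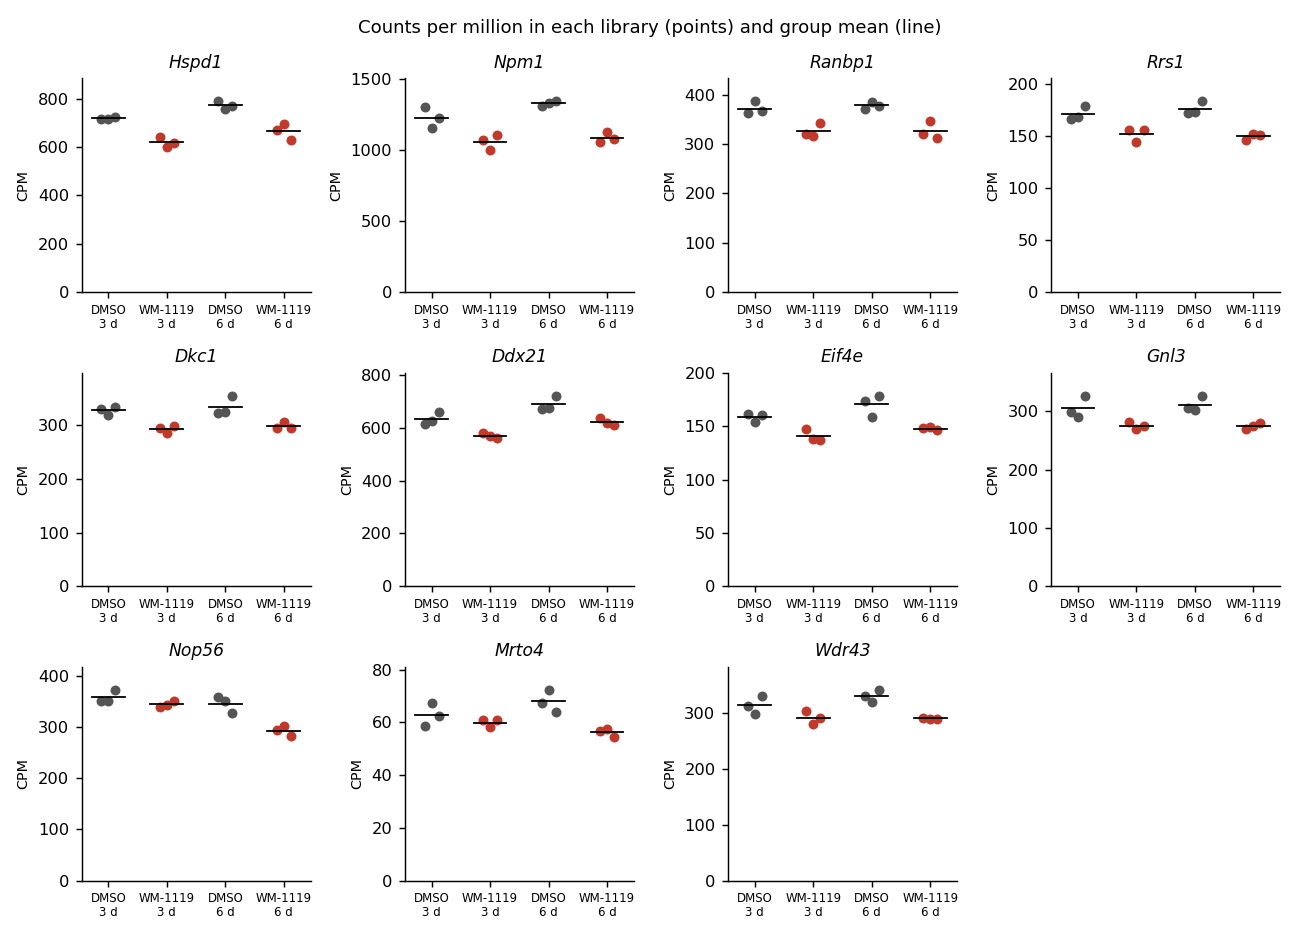
CPM in each library (points) and group means (lines) of 11 genes: the 8 with the smallest p at 3 days and the 8 with the smallest p at 6 days, which share 5. In 8 panels the treated points lie below the controls at both times; in the panels of Nop56, Mrto4 and Wdr43 they do so at 6 days only.

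No gene of the 51 had an effect of WM-1119 that was shown to differ between the 2 times. Dkc1, Rrs1, Gnl3, Ncl, Npm1, Ddx21, Eif4e, Hspd1 and Ranbp1 were lower at both. A further 9 passed at 6 days only (Nop56, Nop58, Nolc1, Rrp9, Wdr43, Wdr74, Ppan, Mrto4 and Eif5a), 2 at 3 days only (Pes1 and C1qbp), and 31 at neither. The effect at 6 days was the lower one for 34 of the 51 (66.7%), beside 48.8% of all tested genes. Yet the difference between the effects passed for 0 of 51, beside 0.725% of all tested genes in either direction. DESeq2 and limma voom also found 0, and 2 of the 51 had an unadjusted p below 0.05, Nop56 and Mrto4. With DMSO alone, 6 against 3 days, 0 of 51 changed, beside 0.45% of all genes called lower and 0.358% called higher, with a median log2 change of 0.01 over the 51. In that comparison DESeq2 and limma voom also called 0, and 8 of the 51 had an unadjusted p below 0.05. Counts at an unadjusted p were not made over all tested genes in any comparison, so those of the 51 have no background here. Without the 5 libraries above 1 CPM of Col1a1, Ppan was lower with DMSO at 6 than at 3 days (-0.29, adjusted p = 0.0319), and without WM-1119 replicate 1 of 3 days Cad was (-0.20, adjusted p = 0.0423).

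Level per length was high for most of these genes. Mean RPKM over the 12 libraries ran from 14.33 for Tfb2m to 758 for Eif5a, with a median of 74.2, and the gene with the lowest level stood at the 52.8th percentile of tested genes. After Eif5a came Npm1 (682.1 RPKM), Ncl (414 RPKM), Ranbp1 (411.9 RPKM) and C1qbp (406.6 RPKM), and the last 3 were close to each other. A division at 100 RPKM, chosen after the values were seen, left 20 genes at or above it and 31 below. Above it 8 were lower at 3 days (40%) and 12 at 6 days (60%), beside 23.6% and 28.2% of the 808 tested genes in that range. Below it 3 (9.68%) and 6 (19.4%) were lower, beside 11.9% and 14.2% of 11189 genes. Median log2 fold changes at or above it were -0.127 and -0.149 for the 20 genes, beside -0.076 and -0.075 for the 808. Below it they were -0.049 and -0.039 for the 31 genes, beside 0.009 and 0.003 for the 11189. Tested genes of high level thus also had medians below 0. Higher genes carry more counts, and the parts of level and precision in this split were not tested.

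**Figure D4:**
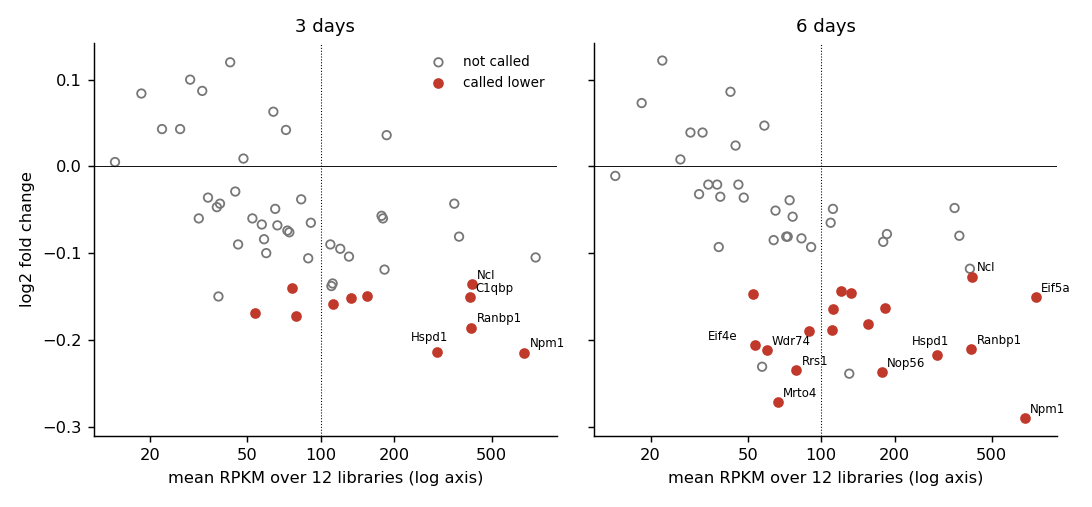
Log2 fold change, WM-1119 against DMSO, plotted on mean RPKM over the 12 libraries (log axis) for the 51 genes at 3 and 6 days, with genes called lower in red and a dotted line at 100 RPKM. Of the 20 genes at or above the line 8 are red at 3 days and 12 at 6 days, and of the 31 below it 3 and 6.

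Some of the 51 genes hold genes of small nucleolar RNAs in their bodies. GENCODE places snoRNA or scaRNA genes on the same strand inside 8 of the 51 genes: Nop56 (5), Nop58 (4), Ncl (3), Gnl3 (3), Wdr43 (3), Ppan (2), Dkc1 (1) and Ranbp1 (1). This is 15.69% of the 51, beside 1.95% of 10723 tested protein-coding genes. Of these 8 hosts 4 were lower at 3 days and 8 at 6 days, and of the 43 others 7 and 10. Over all 209 tested host genes 21.5% were lower at 3 days and 31.1% at 6 days, beside 13.2% and 15.3% of the 10514 without such a gene. The grouping was made after the values were seen and was not tested.

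Most other ribosome biogenesis genes did not pass. Of 124 such genes in the lists of RNA polymerase I, snoRNPs, small and large subunit assembly and the exosome, 8 were lower (6.45%) and 4 higher (3.23%) at 3 days, and 10 lower (8.06%) and 5 higher (4.03%) at 6 days. These shares lay below those over all tested genes in both directions, and their medians were -0.02 and -0.03. They were not tested against those of the 51. Nhp2, an H/ACA protein and partner of Dkc1, fell at both times (-0.23 and -0.25, adjusted p = 0.00229 and 0.000639), and so did Noc2l (-0.19 and -0.20) and Wdr3, a processome protein (-0.20 and -0.19). Gnl3l, a paralogue of Gnl3, rose (0.25 and 0.29, adjusted p = 0.000367 and 5.98e-05), as did Urb1 (0.21 and 0.35) and Nol6 (0.20 and 0.19). Of 19 tRNA synthetases 3 were lower at 3 days, and at 6 days 8 were lower and 1 higher, with Gars at -0.30 and -0.33. Of 20 RNA polymerase III genes 2 were higher at each time, among them Polr3gl (0.52 and 0.50), and 1 was lower at 3 days.

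**Figure D5:**
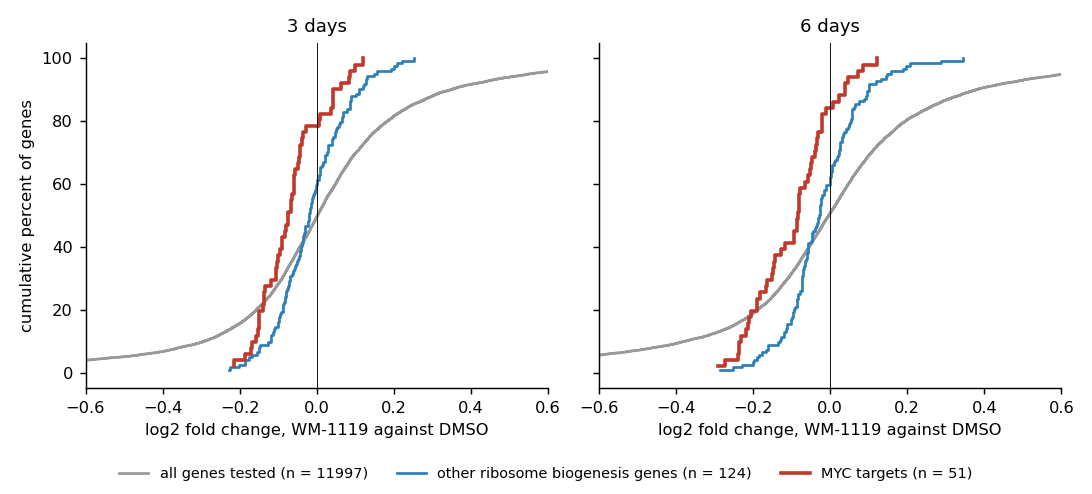
Cumulative percent of genes against log2 fold change, WM-1119 against DMSO, at 3 and 6 days, for all 11997 tested genes (grey), 124 other ribosome biogenesis genes (blue) and the 51 MYC targets (red); the axis is limited to 0.6 either side. The red curve has its median at -0.07 and -0.08, the blue at -0.02 and -0.03, and the grey near 0 with wider tails.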

How the data were processed

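Poly(A) RNA was isolated on RNeasy columns and made into TruSeq stranded libraries, per the labels' protocols. The deposited values are whole-number read counts per gene in 12 libraries, made by the authors with featureCounts on mm10, per the submitters' processing notes. Not given in the sources used here are the aligner, the strand setting and the treatment of reads with several matches. Of 27179 entries 874 had no identifier (0.305% to 0.362% of the counts) and were left out. The remaining 26305 were named through the RefSeq table of GRCm38.p6, which held a symbol for 25275. Gene lengths used for RPKM are those in the deposited table.

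All 12 libraries entered 1 quasi-likelihood fit of 4 group means (edgeR 4.0.16, R 4.3.3) with TMM scaling and a filter on low counts by group (filterByExpr). The common biological coefficient of variation was 5.69%. Tests are two-sided, adjusted by Benjamini-Hochberg over 11997 genes, with a threshold of 0.05. CPM uses the library total times its TMM factor. Errors of log2 fold changes are SE. The 51 members, the other lists and the tests were chosen with earlier results of these data known, so no test was run over a list, and counts and medians stand beside those of all genes. Values in every library are given for the 8 genes with the smallest p at each time, and of each other list the 3 genes with the smallest p at 6 days could be named. Grwd1, Polr1a, Fbl, Hspe1 and Cad were given more detail after their values were seen. Tried instead were no filter on low counts, scaling by RLE or upper-quartile factors, DESeq2 1.42.0, limma 3.58.1 (voom), each pair of groups alone, a replicate block, thinning to 14691369 counts, and each library left out. Leaving out 5 libraries by Col1a1, and a replicate block in the 6-day libraries alone, were added after the data were seen. The labels do not say that a number marks a shared culture or day. Deviations from the group means of same-numbered DMSO and WM-1119 libraries correlated at 0.144 to 0.243 at 6 days (3 of 3 pairs over 0.1). At 3 days they correlated at -0.023 to 0.039 (0 of 3). Different-numbered DMSO and WM-1119 pairs of 6 days reached at most 0.062. Some different-numbered pairs of WM-1119 at 3 days and DMSO at 6 days reached 0.127, 0.129 and 0.142, so values over 0.1 also occur without a shared number. The numbers were taken to pair the libraries of 6 days only, which is an assumption.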

Additional observations from a re-analysis of the deposited data

How the results depend on the processing

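Over 21 alternatives, 3 calls at 3 days held in all (Hspd1, Npm1 and Ranbp1), and over 22 alternatives 6 at 6 days (these with Dkc1, Eif4e and Rrs1). The least stable were Pes1 at 3 days, kept in 10, and Rrp9 at 6 days, kept in 15. No called fold change reversed. Scaling, filter, test, thinning and fitting groups alone gave 8 to 12 genes lower at 3 days and 17 to 19 at 6 days. Upper-quartile scaling made 1 gene higher at 3 days, Grwd1 (adjusted p = 0.0421), and moved the median of all genes to 0.024 and 0.012. Leaving out 1 library at a time gave 4 to 14 genes lower and 0 to 1 higher at 3 days, a median at 3 days of -0.106 to -0.064, 13 to 22 genes lower at 6 days, and 0 to 1 changed with DMSO. Without the 5 libraries above 1 CPM of Col1a1, 4 genes were lower at 3 days and 9 at 6 days, 1516 of all genes were called at 6 days (3693 with them) and 1 of the 51 changed with DMSO. Fewer libraries were left there, and the cause was not tested. The fit of 2 groups alone gives no difference between times.

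Same-numbered libraries deviated together at 6 days and not at 3 days. With a replicate block over all 12 libraries 13 genes were lower at 3 days and 18 at 6 days. With the replicate block in the 6-day libraries alone 20 were lower and 1 higher at 6 days, all 18 calls of the fit without it among them, and the 3 added calls were Hspe1, C1qbp and Utp20. No other call of the 51 at 6 days changed with it. Estimates had a median SE of 0.049, so differences much smaller than those called were not detectable at this depth and number of libraries.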
